A study of Mus musculus with 19 samples.

Results

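Trp53, the gene for p53, and 9 of its direct target genes (Cdkn1a, Mdm2, Ccng1, Phlda3, Zmat3, Eda2r, Bax, Trp53inp1 and Aen) were followed in mouse tongue epithelia that expressed HPV16 E6-E7, an active YAP1, both or neither. The 10 genes were taken by symbol, as p53 and established targets, with earlier results of these data known, out of 24689 symbols measured. All 10 passed the filter on low values, at least 0.1 TPM in at least 3 mice, as did 22745 symbols in all. TPM is a transcript level scaled for gene length and sequencing depth. RNA of the whole epithelium was sequenced in bulk from 19 mice, 15 days after induction, at 8269674 to 11007304 reads on genes per mouse. The 5 E mice carried Krt14-CreERT, LSL-rtTA and tetON_E6-E7, the 3 Y mice carried tetON_YAP1S127A in place of tetON_E6-E7, and the 6 EY mice carried both effector transgenes. Of the 5 N mice, 1 to 3 carried Krt14-CreERT and LSL-rtTA alone, mouse 4 carried LSL-rtTA without Cre, and mouse 5 carried Krt14-CreERT and both effector transgenes without rtTA. By the methods of the study all groups were young adult littermates with an H2B-GFP reporter that received tamoxifen in the tongue and doxycycline chow. Because the Krt14 promoter drives the Cre, transgenes were switched on in KRT14+ basal cells, while the RNA came from all layers and from any cells left attached to them.

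p53 is a transcription factor that is controlled mainly through the stability of its protein, so its RNA level need not follow its activity. Its targets arrest the cell cycle (Cdkn1a), return p53 to a low level (Mdm2) or prepare cells for death (Bax, Aen). HPV16 E6 recruits the ubiquitin ligase UBE3A to degrade p53, E7 binds RB and frees E2F factors, and YAP1S127A, which resists inhibition by LATS kinases, acts with TEAD factors.

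The question for each gene was whether either oncogenic input changed its RNA, and whether the pair differed from the sum of both. E, Y and EY were each compared with the same N mice, so these comparisons are not independent. Fold changes are on the log2(TPM + 0.1) scale, which understates the change of low genes, and p-values are from limma with Benjamini-Hochberg adjustment over all genes tested. A gene changed where the adjusted p was below 0.01, and it is called a DEG where the log2 fold change was also beyond 1 in either direction.

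The YAP targets Ccn1 and Amotl2 were set against the genotypes. For N, E, Y and EY mice in turn, the former spanned 80.8 to 128, 44.3 to 150.02, 325 to 354 and 252 to 509 TPM, and Amotl2 spanned 13.2 to 19.3, 10.2 to 17.0, 45.0 to 67.0 and 50.5 to 75.1 TPM in the same order. Every Y and EY mouse was above every N and E mouse for both, which were chosen for this check after their values were seen, as was Yap1. Mean Yap1 was 8.34, 9.36, 8.57 and 9.08 TPM in that order, with overlapping groups, so the symbol did not mark the Y and EY genotypes. Whether transgene reads are counted under Yap1 was not tested. The study itself reports higher YAP1S127A expression in Y and EY epithelia by bulk RNA sequencing.

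The summed level of 7 keratinocyte markers was 70669 to 138249 TPM (median 112305) for N mice, 67950 to 119310 (median 100557) for E, 55682 to 104032 (median 80728) for Y and 44010 to 60487 (median 53545) for EY. The label of epithelium was met in every mouse. All EY mice were below all N and E mice on this sum. Krt13 and Krt4, keratins of differentiated layers, fell in EY by a log2 of 1.75 (limma, adjusted p = 6.15e-05) and 1.61 (adjusted p = 0.00017). Most of the 7 markers went the other way in EY, with 5 above 0, a median log2 fold change of 0.98 and 3 DEGs that were higher, Krt14, Dsg3 and Cdh1 (2 with the scaling). In bulk samples, fewer cells of a type and less RNA per cell cannot be told apart. Over all genes tested the median log2 fold change was 0.07 for E, 0.13 for Y and 0.33 for EY against N, 0.18 for EY against Y and 0.26 for EY against E. Median-of-ratios scaling of the mice brought these medians to -0.02, -0.03, 0.01, 0.02 and 0.04. The DEGs of EY against N were 2858 higher and 1299 lower (68.8% higher), and 1540 higher and 1972 lower with the scaling (43.8% higher). For Y against N the split moved from 790 higher and 252 lower (75.8%) to 524 and 392 (57.2%), for EY against Y from 243 and 211 (53.5%) to 123 and 283 (30.3%), for EY against E from 1779 and 1135 (61.1%) to 1000 and 1572 (38.9%), and for Y against E from 380 and 183 (67.5%) to 304 and 238 (56.1%). The members' changes are therefore given as measured and again with the scaling, as scaled values.

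**Figure D1:**
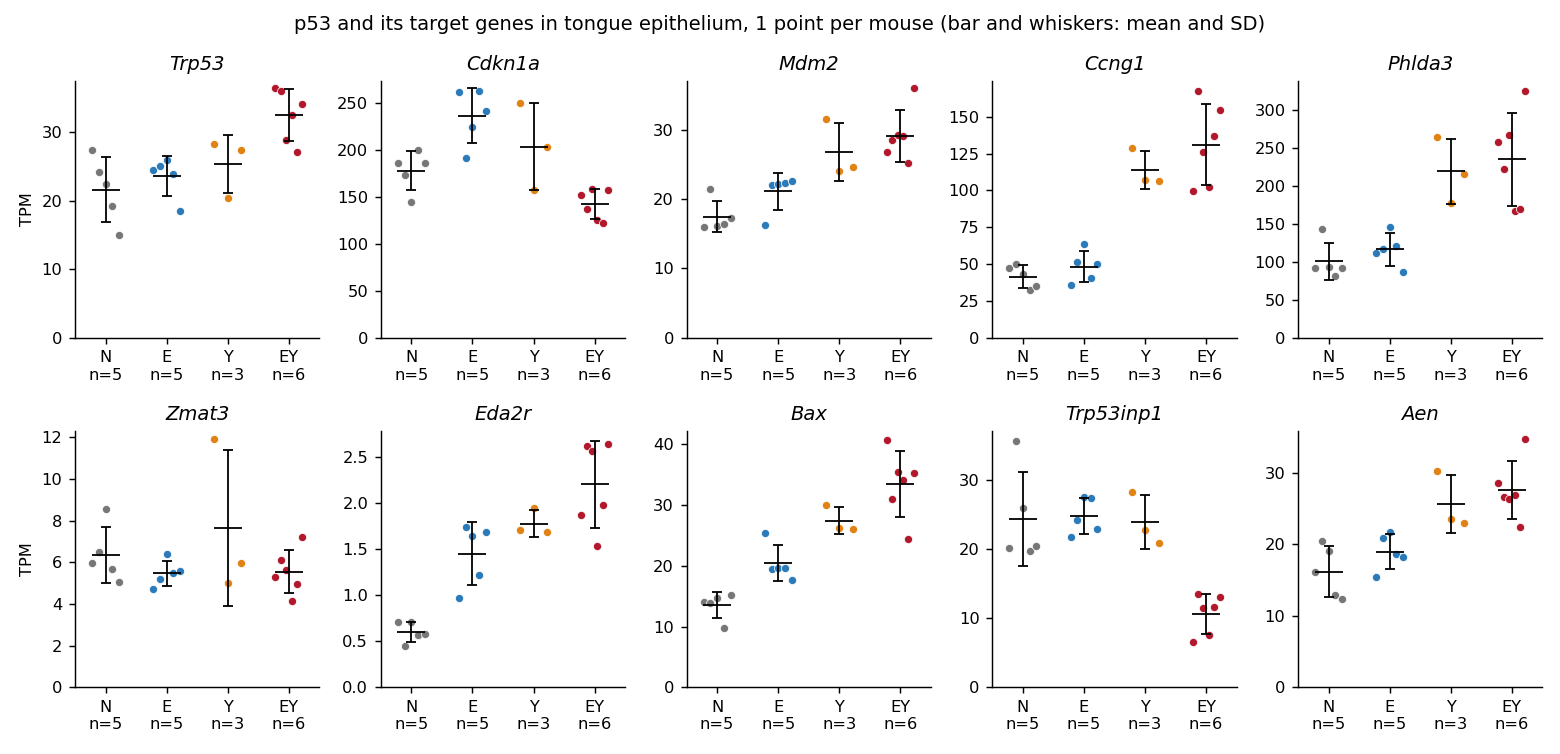
TPM of the 10 genes in each of the 19 mice, 1 point per mouse, with the mean and SD of each group (N n = 5, E n = 5, Y n = 3, EY n = 6). Ccng1, Phlda3, Eda2r and Bax lie higher in every Y and EY mouse than in every N mouse, and Trp53inp1 lies lower in every EY mouse than in any other.

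Trp53 RNA was not lowered in any transgenic group. In N mice 1 to 5 it stood at 27.4, 24.2, 22.4, 19.2 and 14.98 TPM, in E mice at 24.5, 25.0, 25.9, 23.9 and 18.5, in Y mice at 28.2, 20.5 and 27.4, and in EY mice between 27.2 and 36.4 with a median of 33.3. EY mice were the highest as a group, with a slight overlap with N, and E and Y lay within or just above the N range. Against N the log2 fold change was 0.14 ± 0.15 (SE) in E (limma, adjusted p = 0.751), 0.24 ± 0.17 in Y (adjusted p = 0.388) and 0.61 ± 0.14 in EY (adjusted p = 0.00229), so Trp53 rose in EY on the TPM scale. The rise did not pass the test with the scaling (0.23; limma, adjusted p = 0.162), with quantile normalization (0.20, adjusted p = 0.246) or against only the 3 N mice with Krt14-CreERT and LSL-rtTA (0.40, adjusted p = 0.0338), in a range of 0.000744 to 0.246 over the alternatives. EY against E was 0.46 ± 0.14 (limma, adjusted p = 0.0174), although all EY mice were above all E mice.

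Mdm2 encodes the ubiquitin ligase that degrades p53 and is itself a p53 target, which closes a feedback loop. Its level was 15.99, 21.4, 16.2, 16.5 and 17.3 TPM in N mice, 16.3, 22.1, 22.2, 22.4 and 22.6 in E, 31.6, 24.1 and 24.7 in Y, and 25.2 to 36.0 with a median of 28.8 in EY. All Y and EY mice were above all N and E mice, and E overlapped N. Mdm2 rose by a log2 of 0.73 ± 0.11 in EY (95% confidence interval 0.49 to 0.98; limma, adjusted p = 5.35e-05) and 0.61 ± 0.14 in Y (0.32 to 0.90; adjusted p = 0.0058), against 0.27 ± 0.12 in E (adjusted p = 0.297). The scaled values were 0.36 in EY (limma, adjusted p = 0.0114, range over the alternatives 1.94e-05 to 0.0167) and 0.41 in Y (adjusted p = 0.0377, range 0.00251 to 0.0783), so neither passed, and quantile normalization ended both as well (0.0167 and 0.0783). The call in Y further ended with the Xist covariate (limma, adjusted p = 0.0102), the 3 N mice alone (0.0333), only Y and N in the model (0.0315), the replicate block (0.0149) and voom (0.0104). It ended, too, without N1 (limma, adjusted p = 0.0134), N3 (0.0134), N4 (0.0146), N5 (0.0122), Y1 (0.0437), Y2 (0.0107) or Y3 (0.0162).

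Ccng1 encodes cyclin G1, which binds the phosphatase PP2A and is among the most regular p53 targets across tissues. It measured 47.2, 50.02, 43.2, 32.4 and 35.0 TPM in N mice, 35.7, 51.3, 63.3, 40.4 and 50.4 in E, 129, 107 and 106 in Y, and 99.4 to 168 with a median of 132 in EY. The Y and EY mice stood well apart from all N and E mice, while N overlapped E and Y overlapped EY. Ccng1 rose by a log2 of 1.47 ± 0.20 in Y (95% confidence interval 1.04 to 1.89; limma, adjusted p = 0.000112; scaled 1.27) and 1.65 ± 0.17 in EY (1.30 to 2.00; adjusted p = 4.71e-07; scaled 1.27). In E the value was 0.21 ± 0.17 (limma, adjusted p = 0.674). It was a DEG in Y and in EY under 12 of 12 other settings and in 19 of 19 fits that left out 1 mouse. Y against E, a comparison without N mice, gave 1.26 ± 0.20 (limma, adjusted p = 0.000811), which ended as a call when only these groups were in the model (adjusted p = 0.0131, range 0.000158 to 0.0131).

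Phlda3 encodes a pleckstrin-homology protein that competes with Akt for membrane lipids and so restrains Akt signaling. Its level was 91.8, 143, 93.9, 81.7 and 92.3 TPM in N mice, 112, 117, 146, 121 and 86.2 in E, 264, 178 and 215 in Y, and 167 to 326 with a median of 240.4 in EY. Again every Y and EY mouse exceeded every N and E mouse, with N2 the nearest of the N mice. Phlda3 rose by a log2 of 1.13 ± 0.23 in Y (95% confidence interval 0.65 to 1.62; limma, adjusted p = 0.00254) and 1.21 ± 0.19 in EY (0.81 to 1.61; adjusted p = 5.24e-05), with scaled values of 0.94 and 0.84 that passed the test but not the fold threshold, as did 0.98 in Y with the replicate block and 0.98 in EY with quantile normalization. In Y the call ended without Y1 (limma, adjusted p = 0.0186) or Y3 (0.0139), with quantile normalization (0.0202), against the 3 N mice alone (0.0222) and with only these groups in the model (0.0149), in a range of 0.000972 to 0.0222. E against N was 0.22 ± 0.20 (limma, adjusted p = 0.695).

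Bax encodes the protein that permeabilizes the outer mitochondrial membrane in apoptosis. It stood at 14.02, 13.97, 14.6, 9.74 and 15.2 TPM in N mice, 25.5, 19.6, 19.7, 19.7 and 17.7 in E, 29.9, 26.3 and 26.0 in Y, and 24.4 to 40.7 with a median of 34.7 in EY. No transgenic mouse overlapped the N mice, and the group means ran in the order N, E, Y, EY at 13.5 ± 2.18 (SD), 20.4 ± 2.95, 27.4 ± 2.21 and 33.5 ± 5.44 TPM. Bax rose by a log2 of 1.03 ± 0.16 in Y (95% confidence interval 0.69 to 1.37; limma, adjusted p = 0.00036) and 1.30 ± 0.13 in EY (1.02 to 1.59; adjusted p = 5.64e-07). In E it was 0.60 ± 0.14 higher (0.30 to 0.89), which did not pass (limma, adjusted p = 0.0227). Scaled values were 0.83 in Y and 0.93 in EY, both past the test but below the fold threshold, as was 0.90 in EY with quantile normalization. Bax was a DEG in Y under 6 of 12 other settings: the value also fell below 1 with the 3 N mice alone (0.94), quantile normalization (0.76), the replicate block (0.93), voom (0.94) and a pseudocount of 1 TPM (0.98), and without N4 (0.91) or Y1 (0.96). The neighbours Y and E (limma, 0.43, adjusted p = 0.11) and EY and Y (0.28, adjusted p = 0.302) did not pass, whereas EY against E did (0.71 ± 0.13, adjusted p = 0.000476) except with the scaling (0.44, adjusted p = 0.0171) and quantile normalization (0.44, adjusted p = 0.0161), the range being 9.68e-05 to 0.0171.

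Eda2r encodes a receptor of the TNF receptor family that binds ectodysplasin A2, and its gene lies on the X chromosome. The level was low, at 0.709, 0.446, 0.708, 0.567 and 0.575 TPM in N mice, 0.972, 1.75, 1.64, 1.22 and 1.69 in E, 1.71, 1.95 and 1.69 in Y, and 1.54 to 2.65 with a median of 2.28 in EY, from 33 to 204 reads per mouse. All transgenic mice were above all N mice, and E, Y and EY overlapped one another. Eda2r rose in all 3 comparisons, by a log2 of 1.13 ± 0.20 in E (95% confidence interval 0.70 to 1.56; limma, adjusted p = 0.00305; scaled 1.04), 1.44 ± 0.24 in Y (0.94 to 1.93; adjusted p = 0.0005; scaled 1.26) and 1.71 ± 0.20 in EY (1.30 to 2.12; adjusted p = 1.85e-06; scaled 1.36). It was the only one of the 10 genes that changed in E. That call in E ended without E2 (limma, adjusted p = 0.0121), E3 (0.0128) or E5 (0.0127), with Xist as a covariate (0.0122), against the 3 N mice alone (0.0332), with only E and N in the model (0.0347) and with the replicate block (0.0103), in a range of 0.000989 to 0.0347. A pseudocount of 1 TPM gave 0.61 in E, 0.80 in Y and 0.99 in EY, all past the test but below the fold threshold. With only Y and N in the model the call in Y ended too (limma, adjusted p = 0.0112, range 0.000321 to 0.0112). Xist, which marks female mice, exceeded 1 TPM in 2 of 5 N, 0 of 5 E, 2 of 3 Y and 1 of 6 EY mice, and beyond that covariate the part of sex was not tested. The study describes its groups as balanced for sex, which these values do not show, least of all for E. The annotation places Eda2r over Gm18111 and Zmat3 over 4930429B21Rik, neither of which is listed in the table, and the strand used in counting is not stated, so reads of both genes are uncertain to that extent.

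Aen encodes a nuclease that enhances apoptosis. It measured 16.2, 20.5, 18.998, 12.9 and 12.4 TPM in N mice, 15.4, 20.8, 21.6, 18.6 and 18.2 in E, 30.3, 23.6 and 22.9 in Y, and 22.5 to 34.7 with a median of 26.7 in EY. Y and EY lay above all N and E mice, by a small margin. Aen rose in EY by a log2 of 0.78 ± 0.14 (95% confidence interval 0.48 to 1.08; limma, adjusted p = 0.00025; scaled 0.41, adjusted p = 0.00997), a call that ended with quantile normalization (adjusted p = 0.0187, range 0.000115 to 0.0187). Y against N gave 0.68 ± 0.17 (0.31 to 1.04) and missed the threshold (limma, adjusted p = 0.0123), although it passed without N2 (0.00566) or N3 (0.00999), in a range of 0.00566 to 0.0843. E against N was 0.24 ± 0.15 (limma, adjusted p = 0.504).

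Promoter sequence was examined because several of these genes were higher in the same mice. RefSeq promoter windows of the GRCm38.p6 build, from 250 bases before to 50 bases after an annotated start, were matched by symbol for 8 of the 10 genes, which have 10 windows, with none for Zmat3 and Trp53inp1. Both strands were searched for the p53 half-site, for the TEAD letters GGAATG and for the AP-1 letters TGANTCA. The p53 half-site letters were in the windows of 6 of these 8 genes (Trp53, Cdkn1a, Mdm2, Ccng1, Bax and Aen), against 8.36% of 32851 windows of all genes. A pair of such half-sites at most 13 bases apart was in 1 gene, Cdkn1a, at -73 and -51 from its first start, against 0.0731% of all windows. TEAD letters were in Phlda3 at 6 and in Eda2r at -32, on the reverse strand, against 14.7%, and AP-1 letters were in 0 of the 8, against 7.81%. In the list of other p53 targets the half-site letters were in 6 of 31 genes with a window. Members and listed genes were counted by gene, with a match in any of their windows, whereas the shares of all genes count single windows. A match describes the letters of a window and does not show that a factor bound there, and p53 sites that lie outside these windows were not searched. The windows of the genes that were DEGs in Y and EY and of Cdkn1a, which was not, are shown 5′ to 3′ on the strand of the gene, with matches in capitals: p53 half-sites in Cdkn1a (chr17:29090729-29091028, plus strand), Ccng1 (chr11:40755237-40755536, minus strand) and Bax (chr7:45466849-45467148, minus strand), TEAD letters in Phlda3 (chr1:135765835-135766134, plus strand) and Eda2r (chrX:97377160-97377459, minus strand).
Cdkn1a: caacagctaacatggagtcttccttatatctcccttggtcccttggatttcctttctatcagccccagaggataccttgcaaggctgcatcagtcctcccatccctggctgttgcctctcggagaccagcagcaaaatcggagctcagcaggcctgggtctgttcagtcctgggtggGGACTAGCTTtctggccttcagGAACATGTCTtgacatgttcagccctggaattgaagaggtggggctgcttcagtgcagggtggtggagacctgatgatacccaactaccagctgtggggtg
Ccng1: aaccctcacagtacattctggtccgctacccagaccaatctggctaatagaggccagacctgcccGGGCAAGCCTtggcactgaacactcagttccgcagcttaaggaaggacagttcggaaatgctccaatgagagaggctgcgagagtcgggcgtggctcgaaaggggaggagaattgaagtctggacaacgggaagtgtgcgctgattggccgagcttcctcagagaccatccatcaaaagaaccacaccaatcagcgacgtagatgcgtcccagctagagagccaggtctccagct
Bax: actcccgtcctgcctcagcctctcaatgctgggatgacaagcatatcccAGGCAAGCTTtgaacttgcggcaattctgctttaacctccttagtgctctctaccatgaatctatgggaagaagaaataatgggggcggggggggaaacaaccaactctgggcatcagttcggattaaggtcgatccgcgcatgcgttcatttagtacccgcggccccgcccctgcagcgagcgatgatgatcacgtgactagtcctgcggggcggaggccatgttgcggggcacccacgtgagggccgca
Phlda3: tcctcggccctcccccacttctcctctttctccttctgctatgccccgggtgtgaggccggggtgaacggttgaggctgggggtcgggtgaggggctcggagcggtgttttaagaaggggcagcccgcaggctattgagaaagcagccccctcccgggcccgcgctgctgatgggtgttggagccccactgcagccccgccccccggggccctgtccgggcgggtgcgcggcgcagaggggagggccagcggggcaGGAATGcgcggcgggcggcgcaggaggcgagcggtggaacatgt
Eda2r: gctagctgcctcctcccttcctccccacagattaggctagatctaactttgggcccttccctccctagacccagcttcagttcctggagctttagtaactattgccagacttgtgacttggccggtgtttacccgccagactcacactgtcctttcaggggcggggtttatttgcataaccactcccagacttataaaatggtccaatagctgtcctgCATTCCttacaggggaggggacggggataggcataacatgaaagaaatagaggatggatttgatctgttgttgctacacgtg
The half-site of Ccng1 began at -185 and that of Bax at -201, farther from the start than both of Cdkn1a from its first start. The window of the second start of Cdkn1a (chr17:29093519-29093818, plus strand) held no half-site letters. For Trp53 (chr11:69580109-69580408, plus strand, match at -75), Mdm2 (chr10:117710709-117711008, minus strand, match at -186) and Aen (chr7:78895677-78895976, plus strand, match at 10), 30 bases around the match are given.
Trp53: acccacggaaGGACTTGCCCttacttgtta
Mdm2: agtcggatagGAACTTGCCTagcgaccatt
Aen: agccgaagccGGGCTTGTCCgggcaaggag

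**Figure D2:**
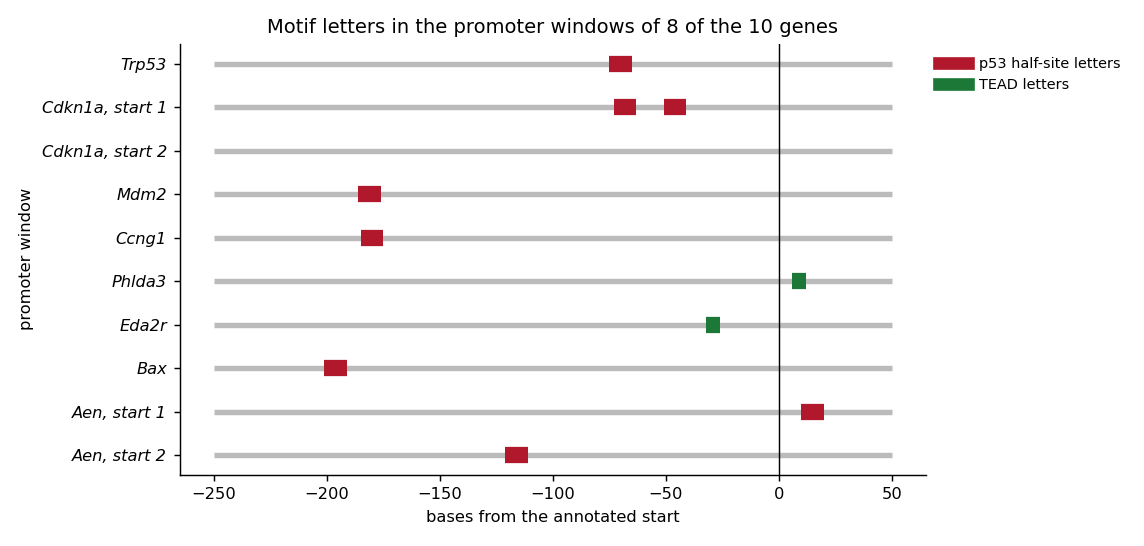
Positions of p53 half-site letters (red) and TEAD letters (green) in 10 promoter windows of 8 genes, in bases from the annotated start. Half-site letters occur in 6 genes, as a pair in the first window of Cdkn1a only, and TEAD letters occur in Phlda3 and Eda2r.

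Cdkn1a, which encodes the cyclin-dependent kinase inhibitor p21, had no rise against N that passed the test. Its level was 186, 173, 144, 200.1 and 185 TPM in N mice, 261, 191, 224, 263 and 241 in E, 249.8, 157 and 203 in Y, and 122 to 159 with a median of 145 in EY. The E mice were mostly high and the EY mice low, all EY mice lying below all E mice, while N and Y overlapped both E and EY. Against N the log2 fold change was 0.41 ± 0.13 in E (95% confidence interval 0.14 to 0.68; limma, adjusted p = 0.104), 0.18 ± 0.15 in Y (adjusted p = 0.478) and -0.32 ± 0.12 in EY (-0.58 to -0.06; adjusted p = 0.0445), none past the threshold. The scaled value in EY was -0.70 (limma, adjusted p = 0.000556), and EY also passed as lower with quantile normalization (-0.59, adjusted p = 0.00136) and with voom on recovered reads (-0.49, adjusted p = 0.00297), in a range of 0.000556 to 0.238. EY against E fell by 0.73 ± 0.12 (95% confidence interval -0.99 to -0.47; limma, adjusted p = 0.000156; scaled -0.996), and this change passed under 12 of 12 settings and in 19 of 19 fits without 1 mouse. EY against Y was -0.50 ± 0.14 (limma, adjusted p = 0.0386).

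Trp53inp1 encodes a p53-induced nuclear protein of the stress response and autophagy, and it was the member that fell in EY against N as measured. It stood at 20.3, 35.7, 26.0, 19.7 and 20.5 TPM in N mice, 21.8, 24.3, 27.6, 27.4 and 23.0 in E, 28.4, 22.8 and 20.8 in Y, and 6.51 to 13.6 with a median of 11.6 in EY. N, E and Y overlapped at means of 24.4 ± 6.79 (SD), 24.8 ± 2.60 and 24.001 ± 3.90 TPM, and every EY mouse was below every other mouse. It fell in EY against N, with a log2 fold change of -1.20 ± 0.19 (95% confidence interval -1.61 to -0.79; limma, adjusted p = 7.52e-05; scaled -1.58), a DEG under 12 of 12 settings and in 19 of 19 fits without 1 mouse. The values in E (0.05 ± 0.20, adjusted p = 0.955) and Y (0.00 ± 0.23, adjusted p = 1) did not pass in limma. EY against E was -1.26 ± 0.19 (-1.67 to -0.84; limma, adjusted p = 6.92e-05) and EY against Y was -1.20 ± 0.23 (-1.68 to -0.72; adjusted p = 0.00359), both DEGs. The call against Y, a group of 3 mice, ended without Y1 (limma, adjusted p = 0.032), Y2 (0.015) or Y3 (0.0104), with Xist as a covariate (0.0112), with the replicate block (0.0106) and with only these groups in the model (0.0304), in a range of 0.000438 to 0.032.

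Zmat3 encodes a zinc-finger protein that binds RNA and regulates splicing and RNA stability. Its level was 5.95, 6.51, 8.59, 5.69 and 5.04 TPM in N mice, 4.70, 5.21, 6.38, 5.50 and 5.56 in E, 11.9, 5.02 and 5.98 in Y, and 4.15 to 7.20 with a median of 5.47 in EY. All groups overlapped, and Y1 alone stood high. No comparison of Zmat3 passed the test: the log2 fold change against N was -0.20 ± 0.21 in E (limma, adjusted p = 0.751), 0.18 ± 0.24 in Y (adjusted p = 0.67) and -0.19 ± 0.20 in EY (adjusted p = 0.489; scaled -0.56, adjusted p = 0.0237). Without Y1 the value in Y was -0.19.

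Counted together, the members moved most in the groups with YAP1S127A. In E, 1 of 10 was a DEG and it was higher, where 1.2% of all genes tested were DEGs, 1.16% higher and 0.044% lower. At any fold the same member alone changed, where 1.75% of all genes changed, 1.71% higher and 0.044% lower. In E, 2 of 10 did not overlap N, both higher (Bax and Eda2r), where 4.57% of all genes did not overlap, 3.93% higher.

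Y had 4 of 10 DEGs, all higher (Ccng1, Phlda3, Eda2r and Bax), where 4.58% of all genes were DEGs, 3.47% higher and 1.11% lower. At any fold 5 of 10 changed in Y, again all higher, where 8.51% of all genes changed, 7.17% higher and 1.337% lower. Y did not overlap N for 6 of 10, all higher, where 21.1% of all genes did not, 15.5% higher and 5.59% lower. Without Y1 the DEGs in Y were 2.

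EY had 4 of 10 DEGs that were higher, against 12.6% of all genes, and 1 that was lower, against 5.71%, or 5 in all against 18.3%. At any fold 7 of 10 changed and were higher in EY against 23.9% of all genes, and 1 was lower against 7.97%, where 31.9% changed in either direction. Those above N without overlap in EY were 6 against 20.9%, and 1 was below against 6.49%. With the scaling 2 were DEGs and higher in Y (Ccng1 and Eda2r), and in EY 2 were higher and 1 lower. The scaled shares of all genes that were DEGs were 2.30% higher in Y, and 6.77% higher and 8.67% lower in EY. At any fold with the scaling, 4 members changed and were higher in Y, and in EY 5 were higher and 2 lower. No share of all genes is given for these scaled counts at any fold. The median log2 fold change of the 10 members was 0.23 in E, 0.64 in Y and 0.76 in EY, beside medians over all genes of 0.07, 0.13 and 0.33. With the scaling the members' medians were 0.12, 0.45 and 0.38, beside -0.02, -0.03 and 0.01. The shares of members called higher in Y and EY were thus above those of all genes. The members were chosen with earlier results of these data known, so this excess is a description only. They also share regulators and are not independent of one another.

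**Figure D3:**
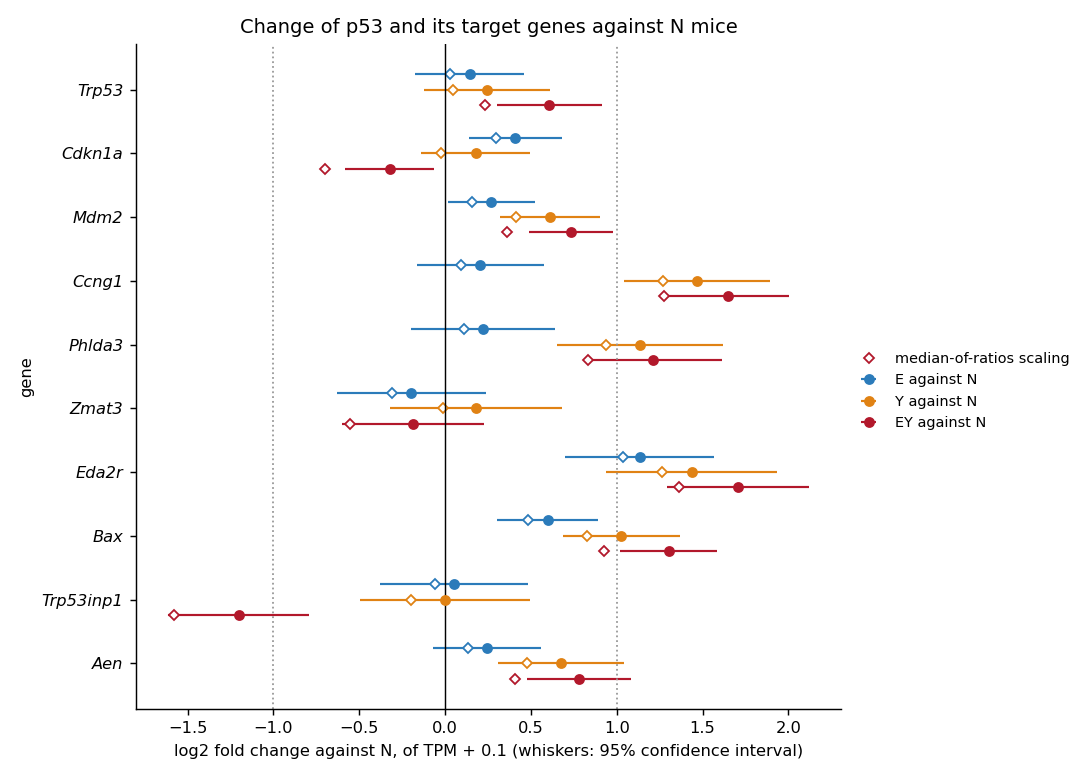
Log2 fold change of the 10 genes against N in E (blue), Y (orange) and EY (red), with whiskers for the 95% confidence interval, open diamonds for the values after median-of-ratios scaling and dotted lines at 1 and -1. Ccng1 and Eda2r stay beyond 1 in Y and EY with the scaling, and Trp53inp1 in EY lies beyond -1 with and without it.

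To ask what each transgene added to the other, EY was set against Y for E6-E7 and against E for YAP1S127A. Adding E6-E7 to YAP1S127A changed 1 member, Trp53inp1, which fell, where 0.928% of all genes were DEGs and lower and 1.07% DEGs and higher. Of all genes 3.53% changed in this comparison, 1.19% lower and 2.34% higher, and 14.5% did not overlap Y, 3.37% lower, as did this member alone. The other members lay between -0.50 and 0.36. Adding YAP1S127A to E6-E7 changed 5 members upward, where 18.1% of all genes changed and were higher, and 2 downward, where 7.16% were lower and 25.3% changed in either direction. Those higher were Ccng1 (1.44 ± 0.17; limma, adjusted p = 3.64e-06), Phlda3 (0.99 ± 0.19, adjusted p = 0.000489), Bax, Aen (0.54 ± 0.14, adjusted p = 0.00681) and Mdm2 (0.46 ± 0.11, adjusted p = 0.00404). Ccng1 was a DEG, where 7.82% of all genes were DEGs and higher, and Trp53inp1 was a DEG and lower, where 4.99% were. With the scaling 2 of the 5, Ccng1 and Phlda3, still passed, and Bax (0.44; limma, adjusted p = 0.0171), Mdm2 (0.20, adjusted p = 0.159) and Aen (0.27, adjusted p = 0.0817) did not. The call of Mdm2 also ended with quantile normalization (limma, adjusted p = 0.139), the replicate block (0.0225), voom (0.0222) and without E1 (0.0135), in a range of 0.00256 to 0.159. That of Aen ended with quantile normalization (0.0865), the replicate block (0.0177), voom (0.0163), the Xist covariate (0.0121) and without E1 (0.0242), E4 (0.0148), E5 (0.0164), EY1 (0.0143), EY2 (0.0118), EY3 (0.0106), EY4 (0.012) or EY6 (0.0173), in a range of 0.00239 to 0.0865. Without overlap 5 members were above E, against 17.6% of all genes, and 2 below, against 6.53%. Eda2r in EY against E was 0.58 ± 0.20 (limma, adjusted p = 0.0292). Y against E had 1 DEG, Ccng1, where 2.48% of all genes were DEGs, 1.67% higher and 0.805% lower, and where 4.34% changed at any fold, 3.3% higher. In that comparison 5 members lay above E without overlap, against 11.1% of all genes.

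The interaction term tested whether EY differed from the sum of E and Y on the log2 scale. By limma 0 of the 10 members passed, 3 had an unadjusted p under 0.05, as did 13.5% of all genes, and 0.198% of all genes changed. The lowest p was that of Cdkn1a, whose term was -0.91 ± 0.19 (95% confidence interval -1.32 to -0.50; limma, adjusted p = 0.0355): its value in EY was lower than the sum of the higher values in E and Y. Trp53inp1 had -1.26 ± 0.31 (-1.90 to -0.61; limma, adjusted p = 0.0616; scaled adjusted p = 0.0265, range over the alternatives 0.0131 to 0.188). Eda2r had -0.86 ± 0.31 (limma, adjusted p = 0.217), with changes against N of 1.13 in E, 1.44 in Y and 1.71 in EY. The other terms lay between -0.32 and 0.22. These terms give no evidence of a departure from additivity at the threshold used, and they do not show that the effects were additive.

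**Figure D4:**
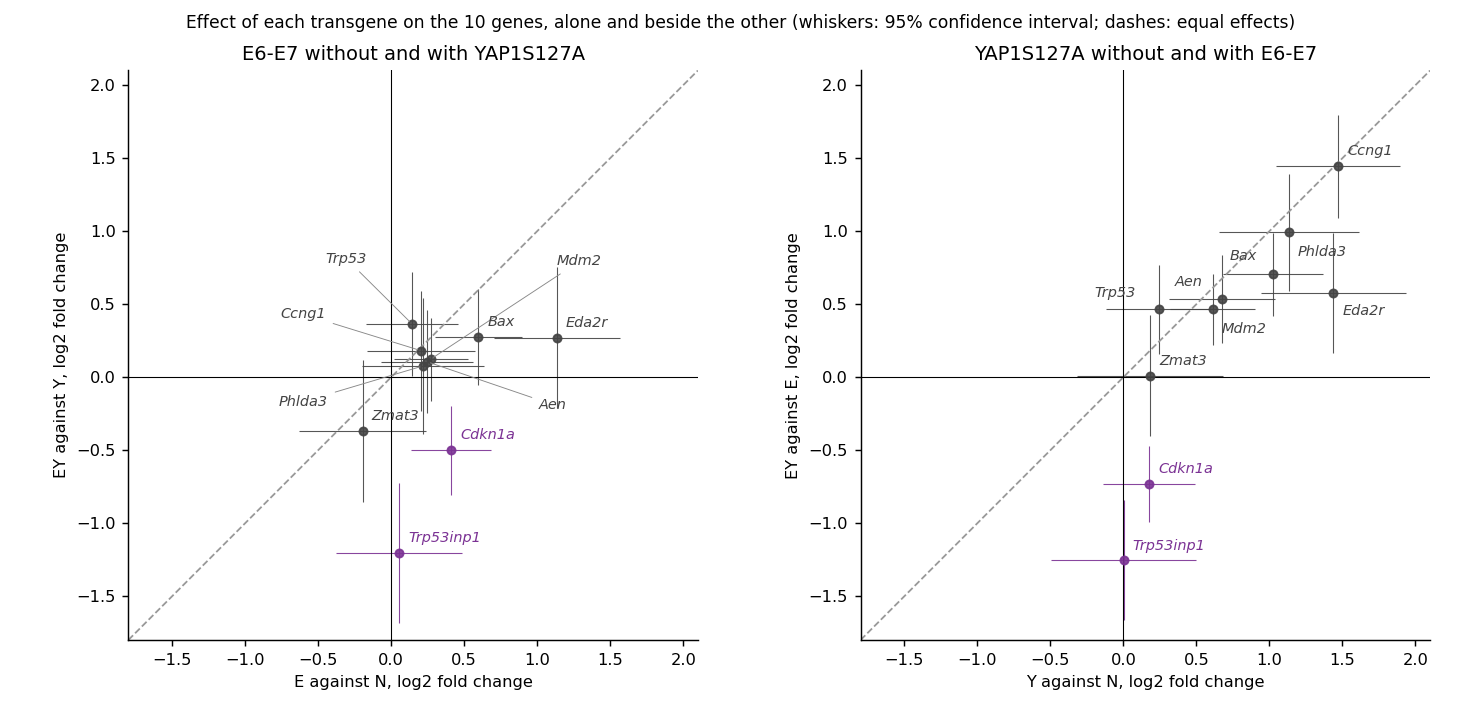
Log2 effect of E6-E7 without (horizontal) and with YAP1S127A (vertical), left, and of YAP1S127A without and with E6-E7, right, for the 10 genes, with 95% confidence intervals and dashes where both effects would be equal. All members but Trp53 lie below the dashes in both panels, Trp53inp1 and Cdkn1a (purple) farthest, with Eda2r close to Cdkn1a.

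The other p53 targets were described with a list of 39 genes, all tested. In E 1 of 39 was a DEG, higher, in Y 6 were DEGs, all higher, and in EY 10 were higher and 3 lower, with median log2 fold changes of 0.15, 0.40 and 0.38. The shares of all genes that were DEGs and higher were 1.16%, 3.47% and 12.6% in that order, and 5.71% were lower in EY. Adding E6-E7 to YAP1S127A made 0 of them a DEG by limma, with 3 higher and 5 lower at unadjusted p under 0.05, where 17.3% of all genes were higher and 6.52% lower. With the scaling 1 of them was a DEG in that step, Btg2, which was lower (-2.09; limma, adjusted p = 0.00823). With the scaling, 4 were higher and 1 lower in Y, where 2.30% of all genes were higher and 1.72% lower. In EY 8 were higher and 4 lower with it, where 6.77% of all genes were higher and 8.67% lower. The median of the list in EY was then 0.00, beside 0.01 over all genes. More of the list than of all genes were thus DEGs and higher in EY by count, whereas its scaled median was near that of all genes. This list too was chosen with earlier results of these data known.

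Pmaip1, which encodes the BH3-only protein Noxa, had the largest change among them in Y and EY at the pseudocount of 0.1 TPM. The means for N, E, Y and EY mice were 3.76 ± 1.28 (SD), 11.3 ± 3.66, 69.8 ± 7.17 and 99.9 ± 21.3 TPM, and no transgenic mouse overlapped N. Pmaip1 rose by a log2 of 1.56 ± 0.23 in E (limma, adjusted p = 0.000412), 4.23 ± 0.26 in Y (adjusted p = 2.31e-07) and 4.72 ± 0.22 in EY (adjusted p = 1.03e-10). The call in E ended against the 3 N mice alone (limma, adjusted p = 0.0105) and with only E and N in the model (0.0158), in a range of 0.000105 to 0.0158. Plk2, a polo-like kinase of the centriole cycle, had means of 58.9 ± 16.1, 70.5 ± 14.3, 354 ± 62.04 and 515 ± 159 TPM in the same order. It rose by 2.61 ± 0.27 in Y (limma, adjusted p = 8.45e-06) and 3.10 ± 0.23 in EY (adjusted p = 1.11e-08), with 0.27 ± 0.24 in E (adjusted p = 0.681). Thus both a cell-death target and a kinase target were high in all Y and EY mice.

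In EY, Gdf15, a secreted stress cytokine, rose by a log2 of 4.31 ± 0.79 (limma, adjusted p = 0.000254), from 0 to 1.49 TPM in N to 2.52 to 7.31 in EY mice. With values at 0 in N its size depends on the pseudocount, at 2.15 with 1 TPM and 6.35 with 0.01 TPM. Gls2, a mitochondrial glutaminase, rose by 2.28 ± 0.25 (limma, adjusted p = 1.19e-06), and Tap1, a peptide transporter of antigen presentation, by 1.98 ± 0.38 (adjusted p = 0.000351). Ptprv, a receptor-type phosphatase, fell by 1.96 ± 0.43 (limma, adjusted p = 0.00136), a change of 0.77 with a pseudocount of 1 TPM. The antiproliferative gene Btg2 and the sestrin Sesn1 were lower in EY too, and both were chosen after their values were seen. Btg2 fell by 1.82 ± 0.37 (limma, adjusted p = 0.000655), from 463 ± 193 to 127 ± 30.1 TPM (SD), a call that ended against the 3 N mice alone (adjusted p = 0.0106, range 8.41e-05 to 0.0106). Sesn1 fell by 1.32 ± 0.15 (limma, adjusted p = 1.74e-06), with 4.86 to 6.22 TPM in N and 1.48 to 2.94 in EY mice. Unlike Trp53inp1 it also fell in Y, by 0.82 ± 0.18 (limma, adjusted p = 0.00484; scaled -1.02, adjusted p = 0.00117), a call that ended with the 3 N mice alone (0.0187), only Y and N in the model (0.0122) or the replicate block (0.0116) and without N1 (0.0113), N5 (0.0128), Y1 (0.0257) or Y3 (0.0286), in a range of 0.000563 to 0.0286.

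In Y, beside Pmaip1 and Plk2, the DEGs of the list were Apaf1 of the apoptosome (1.44 ± 0.23; limma, adjusted p = 0.000379), the death receptor gene Tnfrsf10b (1.43 ± 0.28, adjusted p = 0.00231), Gls2 (1.41 ± 0.30, adjusted p = 0.00405) and Tigar, a regulator of glycolysis (1.15 ± 0.22, adjusted p = 0.00143). Each of these calls rests on few mice or on the model. With only Y and N in the model the calls of Apaf1 (limma, adjusted p = 0.0226, range 2.71e-05 to 0.0226), Gls2 (0.0837, range 0.00116 to 0.0837) and Tigar (0.0194, range 0.00103 to 0.0194) ended. Tnfrsf10b ended against the 3 N mice alone (limma, adjusted p = 0.0219, range 0.000232 to 0.0219) with the replicate block (0.0122) and without Y1 (0.0135) or Y2 (0.0104). Gls2 ended without N5 (0.0104), Y1 (0.0164) or Y3 (0.0354), with the scaling (0.0194), quantile normalization (0.0189) and the replicate block (0.0131). Tigar ended without Y1 (0.0108) or Y3 (0.0136), with quantile normalization (0.0128) and the replicate block (0.0103), and its scaled value was 0.96. A pseudocount of 1 TPM brought Apaf1 (0.75), Gls2 (0.92) and Tigar (0.89) below the fold threshold.

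**Figure D5:**
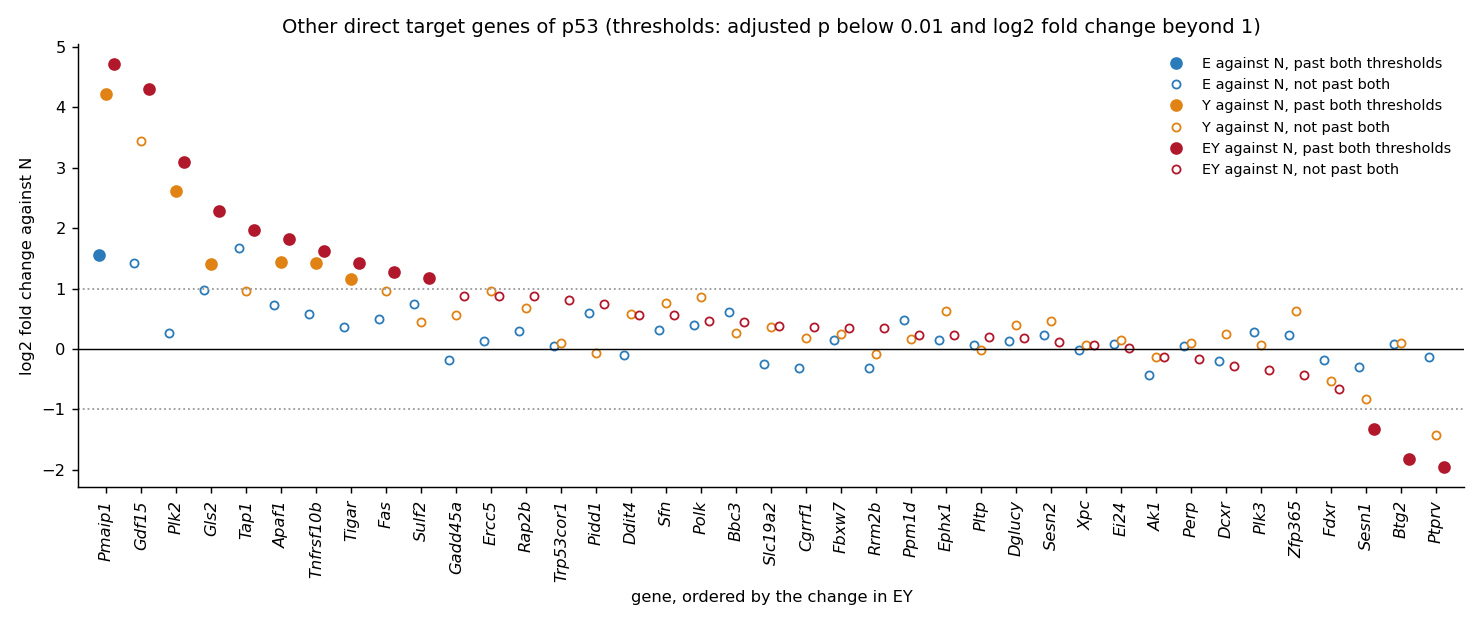
Log2 fold change against N of the 39 other p53 target genes in E (blue), Y (orange) and EY (red), ordered by the value in EY, with filled points for DEGs and dotted lines at 1 and -1. Pmaip1, Gdf15 and Plk2 lie highest in EY, and Sesn1, Btg2 and Ptprv lie lowest.

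Regulators of p53 and its family were a list of 18 genes, of which 4 were DEGs in EY, all higher, where 12.6% of all genes were DEGs and higher. With the scaling 3 were higher and 2 lower, where 1540 of 22745 genes tested were higher and 1972 lower. By limma 0 were DEGs in E, where 4 were higher and 1 lower at unadjusted p under 0.05 (11.2% and 3.54% of all genes), and 0 in Y, where 4 were higher and 2 lower (20.9% and 7.90%). Chek1, a kinase of the replication checkpoint, rose in EY by a log2 of 1.99 ± 0.20 (limma, adjusted p = 5.52e-07), Wrap53, a neighbour of Trp53 that encodes a telomerase and Cajal body protein, by 1.40 ± 0.25 (adjusted p = 0.000229), and the DNA damage kinase gene Atm by 1.11 ± 0.20 (adjusted p = 0.000242; 0.75 with the scaling, 0.82 with quantile normalization and 0.80 with a pseudocount of 1 TPM). Cdkn2a, whose ARF product inhibits MDM2, was near 0 TPM in N (mean 0.0457) and Y (0.0584) and higher in E (0.497) and EY (0.508). Its change passed in EY (1.88 ± 0.48; limma, adjusted p = 0.0039) and not in E (2.01 ± 0.50, adjusted p = 0.0311). In EY the call of Cdkn2a ended without N2 (limma, adjusted p = 0.0114), N4 (0.0122) or EY1 (0.0104), with the 3 N mice alone (0.0342), quantile normalization (0.0239), only EY and N in the model (0.0123) and a pseudocount of 1 TPM (0.49, adjusted p = 0.0159), in a range of 0.00121 to 0.0342.

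Of the partners through which p53 is restrained or degraded, Mdm4, which binds and inhibits p53, was -0.08 in E, -0.16 in Y and -0.24 in EY against N, none past the test, and passed as lower in EY with the scaling (-0.61; limma, adjusted p = 0.00336, range 0.00216 to 0.512) and with quantile normalization (0.00216). Ube3a, the ligase that E6 recruits, was -0.38 in E (limma, adjusted p = 0.233), 0.14 in Y and 0.38 in EY (adjusted p = 0.0453; scaled 0.01) against N. It passed as higher in EY against E (0.76; limma, adjusted p = 0.000525; scaled 0.49, adjusted p = 0.00829). The family member Trp63, which marks basal cells, was -0.02, -0.20 and 0.02, with group means of 6.52 to 7.69 TPM. Trp73 was -0.58 in E, -0.32 in Y and -1.07 in EY (limma, adjusted p = 0.0113), and passed as lower in EY with the scaling (-1.39, adjusted p = 0.00145, range 0.00141 to 0.0326), quantile normalization (0.00268), voom (0.00141), only EY and N in the model (0.00886) and a pseudocount of 1 TPM (0.00817), and without E1 (0.00856), E3 (0.00851) or E5 (0.00819).

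Genes that p53 lowers through p21 and the DREAM complex, which holds cell-cycle promoters silent, were higher in Y and EY for all members measured. In E 18 of the 19 measured passed the test as higher. Of 20 listed, 19 were measured. In E 17 of 19 were DEGs and higher, and in Y and in EY 19 of 19, with median log2 fold changes of 1.78, 2.099 and 3.01, and the scaling left these counts as they were. Of all genes 1.16%, 3.47% and 12.6% were DEGs and higher in that order. Ccnb1, the mitotic cyclin B1, rose by 1.94 ± 0.15 in E (limma, adjusted p = 3.67e-07), 2.44 ± 0.17 in Y (adjusted p = 2.61e-07) and 3.52 ± 0.14 in EY (adjusted p = 3.30e-11). Its partner kinase gene Cdk1 rose by 2.11 ± 0.14, 2.42 ± 0.16 and 3.50 ± 0.13 in the same order (limma, adjusted p = 1.00e-07, 2.31e-07 and 3.30e-11). These genes are also higher wherever more cells divide, and which of these applies was not tested.

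E2F target genes, which E7 is known to release through RB, gave 12 DEGs of 17 in E, 5 in Y and 17 in EY, all higher, with medians of 1.16, 0.82 and 1.96, beside the same shares of all genes, 1.16%, 3.47% and 12.6%. With the scaling the counts were 9, 3 and 14, where 0.985%, 2.30% and 6.77% of all genes were DEGs and higher. Ccne1, which encodes cyclin E1, rose by 2.33 ± 0.22 in E (limma, adjusted p = 5.54e-06), 1.46 ± 0.26 in Y (adjusted p = 0.000892; highest over the alternatives 0.0248, with only Y and N in the model) and 2.94 ± 0.21 in EY (adjusted p = 1.13e-08). EY against Y gave 10 of 17 as DEGs, all higher, where 1.07% of all genes were, and 5 with the scaling, where 0.541% were. At any fold, adding E6-E7 to YAP1S127A raised 12 of the 17 E2F genes, or 9 with the scaling, where 2.34% of all genes changed and were higher. In the same step 10 of the 19 genes repressed through p53, p21 and DREAM were raised, or 9 with the scaling. Of the 10 p53 members 9 did not pass the test for that step. The differences between the lists were not tested.

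Markers of other cells differed between groups as well. The summed level of 11 immune markers was 102 to 781 TPM (median 127) for N mice, 42.5 to 540 (median 280.1) for E, 593 to 1012 (median 823) for Y and 264 to 1047 (median 793) for EY. Lyz2 had the highest mean of them in N (196 TPM) and E (171), and S100a8 in Y (496) and EY (381). In Y only 4 of the 11 were above 0 against N, with a median log2 fold change of -0.04, and the 2 that changed were S100a8 and S100a9, which neutrophils express, and both were higher. In EY 9 of 11 were above 0, with 3 DEGs higher and 1 lower. For 6 muscle markers the sums for N, E, Y and EY mice were 6.71 to 229.8, 7.51 to 121, 5.79 to 124 and 31.7 to 1228 TPM, with EY3 highest. For 6 fibroblast markers they were 61.5 to 293, 57.2 to 104, 23.8 to 44.1 and 24.2 to 153 TPM, and 4 endothelial markers reached at most 3.17. In E 0 of the 11 immune markers passed the test, and most of them did not pass in Y or EY. The part of immune cells in the changes of the members was not tested.

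Likeness over the 19 mice was taken as Pearson's r of log2(TPM + 0.1), as a description without a test, since r over these mice mostly reflects differences between the groups. Ccng1 was most like Esd (r = 0.978), Afap1l1 (0.965) and Myo1c (0.961). Phlda3 was most like Pdcd6ip (0.945), Ube2m (0.940) and Dag1 (0.937), and Bax was most like Wtip (0.952), Plk1 (0.951) and Hnrnpab (0.949). Eda2r was nearest to the mitotic genes Kif18b (0.936), Nuf2 (0.930) and Aspm (0.928). For Trp53 the nearest were Slc3a2 (0.955), Igf2r (0.938) and Fubp3 (0.937), for Mdm2 Cox11 (0.944), Fitm2 (0.940) and Haspin (0.935), and for Aen Rab22a (0.943), Frmd8 (0.936) and Zrsr2 (0.935). Trp53inp1 was nearest to Trim7 (0.965), Peli3 (0.940) and Pcsk6 (0.928), and Cdkn1a to 1700023B13Rik (0.938), Ovol1 (0.904) and 1810058N15Rik (0.879). Zmat3 had the lowest values, at 0.845 for Vat1, 0.818 for Lpar5 and 0.809 for Wbp1l. None of these 30 names is another member, so the 10 genes were not each other's nearest profiles.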

How the data were processed

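The deposited TPM values were made by the authors, who describe alignment to GRCm39 with STAR 2.7.9, sorting with SAMtools 1.7 and counting with HTSeq 0.13.5. How counts became TPM and whether counting used the strand are not stated. The table holds 24689 symbols in 19 mice. A gene was kept if 3 or more mice had 0.1 TPM or more of it (22745 genes), and log2(TPM + 0.1) was fitted with limma 3.58.1 (trend, R 4.3.3) to 4 groups, with Benjamini-Hochberg adjustment over all genes kept. The table lists mouse symbols, and whole read counts, within a tolerance of 0.001 reads, were recovered for 24680 of 24680 symbols above 0. This is unlike the Kallisto estimates on a human transcriptome that the authors describe for gene set analysis. The recovered counts were used for depth and for voom. Other steps used Python 3.11.15. Members and lists were chosen with earlier results of these data known. All 10 members are named. From each other list, genes were named from the 6 DEGs per comparison with the largest fold change, or fewer where fewer passed. Not all of these are named, and those named are not always the largest. Ube3a, Mdm4, Cdkn2a, Trp63 and Trp73 are named besides, as are cell markers. Other named genes of the p53 lists are said to have been chosen after their values were seen.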

Additional observations from a re-analysis of the deposited data

Results flagged for a closer look

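The N, E and EY groups were searched for a single mouse that lay apart from the others of its group for a member gene (Y, with 3 mice, was not), a search in which chance alone gives about 1 find in 20 groups. A mouse stood out 7 times in the 30 groups tested, and N mouse 2 and E mouse 1 did so for more than 1 gene. For Trp53, E mouse 5 was lowest at 18.5 TPM. For Mdm2, N mouse 2 was highest at 21.4 TPM, E mouse 1 lowest at 16.3 TPM and EY mouse 6 highest at 36.0 TPM. For Phlda3, N mouse 2 was highest at 143 TPM. For Bax, N mouse 4 was lowest at 9.74 TPM and E mouse 1 highest at 25.5 TPM. All of these mice were kept.

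Cdkn1a had an interaction of -0.91 on the log2 scale (limma, Benjamini-Hochberg adjusted p = 0.0355), so its value in EY mice lay below the sum of E6-E7 and YAP1S127A effects. The term missed the threshold of 0.01, and the adjusted p was 0.0124 to 0.126 over the alternatives.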

How the results depend on the processing

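Each comparison was refitted under 12 other settings (11 for the interaction), among them voom on recovered reads, which was added after the data were seen, and without each of the 19 mice. Fold changes depend on the scaling of the mice, and groups of 3 to 6 mice leave several calls resting on 1 mouse.

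Of the members, 1 was a DEG in E against N, and 0 were with the Xist covariate, with only the 3 N mice with Krt14-CreERT and LSL-rtTA, with only the groups compared, with a pseudocount of 1 TPM or with the replicate block (0 to 1 without 1 mouse). In Y against N 4 were, and 2 with median-of-ratios scaling, only the 3 N mice, only the groups compared, a pseudocount of 1 TPM, quantile normalization or the replicate block, and 3 with voom (2 to 4 without 1 mouse). In EY against N 5 were, and 3 with median-of-ratios scaling or quantile normalization and 4 with a pseudocount of 1 TPM (5 to 5). In EY against Y 1 was, and 0 with the Xist covariate, only the groups compared or the replicate block (0 to 1). In EY against E 2 were (2 to 3 without 1 mouse). In Y against E 1 was, and 0 with only the groups compared (1 to 1).

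Of all genes, 274 were DEGs in E against N, and 145 with only the groups compared (221 to 328 without 1 mouse). In Y against N 1042 were, 656 with only the 3 N mice and 555 with only the groups compared (639 to 1039). In EY against N 4157 were (3779 to 4212 without 1 mouse). In EY against Y 454 were, and 198 with only the groups compared (200 to 496). In EY against E 2914 were (2575 to 3026). In Y against E 563 were, 310 with the Xist covariate and 187 with only the groups compared (266 to 577). The interaction gave 40, and 118 with voom (28 to 73).

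The replicate block, which treats mice of the same number as pairs, gave 221 DEGs in E against N, 861 in Y against N, 3989 in EY against N, 320 in EY against Y, 2814 in EY against E, 406 in Y against E and 27 for the interaction. Mice of the same number in other groups had a median r of 0.0119 over 24 pairs, little above that of -0.00751 over 109 other pairs.

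Some log2 fold changes near 0 turned direction, none of them called. Trp53 log2 fold change, E against N, was -0.0696 with only the 3 N mice and -0.0049 with quantile normalization. Trp53 log2 fold change, Y against N, was -0.0289 with quantile normalization. Cdkn1a log2 fold change, Y against N, was -0.0216 with the scaling and -0.094 with quantile normalization. Zmat3 log2 fold change, Y against N, was -0.0135 with the scaling and -0.0236 with quantile normalization, and without 1 mouse it ranged from -0.186 (without Y1) to 0.429.

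Trp53inp1 log2 fold change, E against N, was -0.0598 with the scaling, -0.107 with only the 3 N mice and -0.0968 with quantile normalization. It ranged from -0.0141 to 0.199 without 1 mouse, and was below 0 without N1, N4 or N5. Trp53inp1 log2 fold change, Y against N, was -0.0766 with the Xist covariate, -0.197 with the scaling, -0.159 with only the 3 N mice, -3.66e-05 with a pseudocount of 1 TPM, -0.268 with quantile normalization, -0.0604 with the replicate block and -0.0995 with voom. Without 1 mouse it ranged from -0.125 to 0.147, and was below 0 without N1, N4, N5 or Y1.

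Mdm2 log2 fold change, EY against Y, was -0.0545 with the scaling and -0.0175 with quantile normalization. Phlda3 log2 fold change, EY against Y, was -0.10 with the scaling and ranged from -0.0622 (without Y2) to 0.222 without 1 mouse, being -0.0248 without EY6. Aen log2 fold change, EY against Y, was -0.0711 with the scaling and -0.0389 with quantile normalization. Zmat3 log2 fold change, EY against Y, ranged from -0.615 to 0.000171 (without Y1).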
